A study of Mus musculus with 14 samples.

Results

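Regulatory T cells (Tregs) restrain immune responses and help repair tissue, and 8 genes for mediators of these tasks were followed across 14 Clariom S mouse arrays. They were Il10, Ebi3, Il12a, Tgfb1, Areg, Fgl2, Lgals1 and Lgals3, chosen by gene symbol. Each of the 8 had 1 transcript cluster (the probes that read 1 gene) among the 22203 named ones. All values below are log2 signals on 1 normalised scale, and a difference of 1 on this scale is a 2-fold change.

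The cells were CD4+ Foxp3-YFP+ Tregs of mice on a C57BL/6 background, taken from mixed bone marrow chimeras. In these chimeras, CD45.2+ marrow of the donor of interest was mixed with CD45.1+ wild-type marrow and given to sublethally irradiated Rag1-/- hosts, which have no T or B cells of their own but keep their other cells. Reconstitution took 6 to 8 weeks. All donors of interest carried Foxp3-Cre, which is meant to delete loxP-flanked DNA in cells that express Foxp3. Donors labelled KO were Atg14 fl/fl and control donors, labelled heterozygous, were Atg14 +/fl, so that the controls also carried 1 flanked allele. The study states that fl/fl mice with an Atg14 +/- or -/- allele were used in some experiments, with no notable difference seen. Whether these donors were among them is not given. Atg14 encodes a subunit of the autophagy complex of the lipid kinase Vps34. Central Tregs (cTregs, CD44 low) and effector Tregs (eTregs, CD44 high) were sorted from each genotype. There were 4 control cTreg, 3 KO cTreg, 4 control eTreg and 3 KO eTreg arrays. The tissue was spleen with peripheral lymph nodes by the series description and spleen alone by the study's methods. Nothing in the labels says how the arrays of a group relate to individual mice, so the p-values measure only the spread between these samples. The study describes both subsets as sorted from 4 control and 3 KO chimeras. The subsets may thus share mice, and the main fit did not pair them.

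Tregs act through secreted cytokines, cell-surface molecules and secreted lectins. IL-10 and TGF-beta restrain T cells and antigen-presenting cells. Ebi3 pairs with the Il12a product, p35, to form IL-35. Amphiregulin (Areg) is a ligand of the EGF receptor that supports epithelial and muscle repair. Fgl2 binds inhibitory Fc receptors on antigen-presenting cells, and galectin-1 and galectin-3 (Lgals1 and Lgals3) bind glycans on T cells and other cells.

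Array medians lay between 8.77 and 8.90, and arrays correlated with each other at 0.962 to 0.994. Foxp3 was near 12.8 in cTregs and eTregs alike. Cd44 was 1.61 higher in control eTregs than in control cTregs, as the sort requires. The Atg14 signal was not lower in the arrays labelled KO. It was 0.32 higher than control in eTregs (unadjusted P = 0.0323, adjusted P = 0.550, limma). In cTregs it was 0.35 higher (unadjusted P = 0.0213, adjusted P = 0.9999, limma), so the groups are called by their labels. Where the probes lie relative to the deleted part is not known here, and genotype was not checked by this signal. The study reports that it verified Atg14 deletion by quantitative PCR in Tregs of its Atg14 fl/fl mice, apart from these arrays.

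The 3 KO eTreg arrays were unlike each other. A list of 5 eTreg markers (Cd44, Icos, Tigit, Klrg1 and Prdm1) averaged 9.71 in KO eTreg 1, against 10.73 and 10.76 in KO eTreg 2 and 3 and 10.48 to 11.01 in the control eTreg arrays. A list of 16 monocyte and macrophage markers averaged 10.4 in both KO eTreg 2 and KO eTreg 3. It averaged 8.50 in KO eTreg 1, 8.77 to 9.14 in control eTregs, 8.24 to 8.34 in KO cTregs and 8.01 to 8.20 in control cTregs. At least 15 of the 16 markers were above the highest array median of the background control probes, 6.30, on every array. That cut lies far below the array medians, so passing it does not show that a marker was expressed. Cd68 and C1qb, the pair of highest mean, stood at 11.2 and 11.2 in KO eTreg 2, at 11.6 and 11.1 in KO eTreg 3, and at 9.36 and 9.07 in KO eTreg 1. A dendritic cell list was also highest in KO eTreg 2 and 3 (8.64 and 9.08, against 7.66 to 8.06 on the other 12 arrays). Its markers were mixed, with 4 of 7 higher in KO than in control eTregs. Flt3, Zbtb46 and Clec9a were slightly lower (7.20, 9.14 and 6.57, against 7.30, 9.18 and 6.65). Siglech was high in all 3 KO eTreg arrays (at least 9.78, against at most 8.86 in control eTregs). KO eTreg 2 and 3 were also highest for a CD8 T cell and NK cell list (8.75 and 9.34, against 7.87 to 8.66). All 6 of its markers had higher means in KO than in control eTregs. A list of 4 plasma cell markers was highest on the same arrays (8.07 and 8.20, against 7.02 to 7.61). Only 2 of these 4 were higher in KO than in control eTregs. On KO eTreg 2 and 3 Jchain stood at 9.57 and 10.7. Sdc1 stood there at 7.95 and 7.79, below its control eTreg range of 8.16 to 8.44. These values stand beside every result on KO eTregs below, and their part in those results was not tested. In bulk samples, fewer cells of a type and less RNA per cell cannot be told apart.

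The stretch before the start of transcription is where activators of T cell genes often bind. RefSeq promoter entries for mouse (GRCm38.p6) matched 6 of the 8 genes, and those of Il10 and Lgals1 were not matched. The 250 bases before the start are shown for 4 genes whose signal differed between eTregs and cTregs in at least 1 genotype, all on the plus strand. Capitals mark matches to any of 5 motifs searched on both strands: AP-1 (TGANTCA), STAT (TTCNNNGAA), NFAT (TGGAAA), NF-kB (GGGA and CC with any 4 bases between) and CRE (TGACGTCA).
Areg, chr5:91139349-91139598: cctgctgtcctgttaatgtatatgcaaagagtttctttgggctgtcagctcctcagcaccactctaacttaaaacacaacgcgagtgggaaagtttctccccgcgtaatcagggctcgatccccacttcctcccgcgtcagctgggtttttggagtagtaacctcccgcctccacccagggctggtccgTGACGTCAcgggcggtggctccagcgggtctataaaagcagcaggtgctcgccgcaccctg
Fgl2, chr5:21372423-21372672: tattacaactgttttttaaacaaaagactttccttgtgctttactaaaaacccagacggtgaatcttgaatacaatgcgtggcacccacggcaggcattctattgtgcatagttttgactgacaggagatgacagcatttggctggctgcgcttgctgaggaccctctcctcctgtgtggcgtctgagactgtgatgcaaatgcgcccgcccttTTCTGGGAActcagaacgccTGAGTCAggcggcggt
Ebi3, chr17:55952373-55952622: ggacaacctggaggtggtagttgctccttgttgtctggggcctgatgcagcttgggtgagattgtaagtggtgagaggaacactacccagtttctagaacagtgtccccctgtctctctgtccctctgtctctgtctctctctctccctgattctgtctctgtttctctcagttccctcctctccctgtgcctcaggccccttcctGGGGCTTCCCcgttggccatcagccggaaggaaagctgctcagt
Lgals3, chr14:47373610-47373859: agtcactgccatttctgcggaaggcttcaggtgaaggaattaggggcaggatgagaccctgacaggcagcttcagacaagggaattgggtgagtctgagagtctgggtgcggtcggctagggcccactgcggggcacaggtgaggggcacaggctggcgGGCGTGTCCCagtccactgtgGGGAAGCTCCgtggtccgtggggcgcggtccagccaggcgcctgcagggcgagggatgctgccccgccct
Areg held the full CRE palindrome 61 to 54 bases before its start, a motif in 1.55% of the 32851 promoters searched. Fgl2 held a STAT match 36 to 28 bases and an AP-1 match 16 to 10 bases before its start, motifs found in 7.02% and 6.75% of promoters. Ebi3 held 1 and Lgals3 held 2 matches to the NF-kB motif, which occurs in 17.6% of promoters. Of the genes that did not differ between subsets, Tgfb1 held 1 match and a promoter of Il12a held 2. The motif was thus not confined to the genes shown. None of the 4 stretches held the NFAT core, which occurs in 18.6%. These matches describe letters in the reference sequence and say nothing of binding.

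The first question was which mediators differ between effector and central Tregs when 1 copy of Atg14 can still be expressed. In control Tregs, Il10, Areg, Ebi3, Fgl2 and Lgals1 rose in eTregs, by 0.76 to 1.87. Thus 5 of the 8 genes passed the threshold used throughout (limma, Benjamini-Hochberg adjusted P below 0.05 over all transcript clusters and a log2 difference of at least 0.5), against 3.06% of all transcript clusters in either direction and 2.14% higher. No member fell. The eTreg and cTreg arrays did not overlap and lay higher for 6 of the 8, against 6.12% of all transcript clusters. The median difference was 0.81 over the 8 members and 0.0026 over all transcript clusters.

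Il10 encodes the cytokine that limits antigen-presenting cells and inflammatory T cells. Its signal was 7.42, 7.06, 6.90 and 7.04 in control cTregs and 8.69, 9.04, 8.50 and 9.67 in control eTregs. Every eTreg array lay above every cTreg array, and eTreg 4 was the highest of the 8. The difference was 1.87 ± 0.30 (SE), a 3.66-fold rise (adjusted P = 0.00153, limma). It was the largest change among the 8 genes in this comparison.

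The subunits of IL-35 did not move together. Ebi3 was 7.42, 7.49, 7.46 and 7.64 in control cTregs and 8.13, 8.58, 8.38 and 8.30 in control eTregs. The groups were apart, and the rise of 0.85 ± 0.14 (1.80-fold) passed the threshold (adjusted P = 0.00192, limma). Il12a was 6.01, 6.02, 6.38 and 6.27 in control cTregs and 6.42, 6.31, 6.17 and 6.38 in control eTregs. These ranges overlapped each other and the array medians of the background control probes, 6.00 to 6.30. For Il12a the difference was 0.15, with a 95% confidence interval of -0.13 to 0.42 (adjusted P = 0.781), and a signal this close to background limits what can be read from it.

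Tgfb1 encodes the latent cytokine TGF-beta 1. It was 11.86, 11.98, 11.93 and 11.76 in control cTregs and 11.92, 12.04, 11.92 and 11.89 in control eTregs. The groups overlapped and differed by 0.060 (interval -0.13 to 0.25, adjusted P = 0.906, limma), so a difference beyond 0.25 in either direction lay outside the interval.

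Areg, the EGF receptor ligand, was 8.76, 9.30, 9.54 and 9.64 in control cTregs and 10.35, 10.93, 10.30 and 10.80 in control eTregs. The lowest eTreg array stood above the highest cTreg array, and cTreg 1 was the lowest of all 14 arrays. Areg rose by 1.28 ± 0.21 (2.43-fold, adjusted P = 0.00171, limma).

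Fgl2, the secreted fibrinogen-like protein, had the second largest change. It was 9.28, 8.94, 8.73 and 8.94 in control cTregs and 10.37, 10.83, 10.06 and 10.59 in control eTregs. The groups were clear of each other, with a rise of 1.49 ± 0.25 (2.81-fold, adjusted P = 0.00192, limma).

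Both galectins were higher in control eTregs, but by less. Lgals1 was 11.57, 11.73, 11.71 and 12.04 in control cTregs and 12.50, 12.68, 12.55 and 12.38 in control eTregs, a rise of 0.76 ± 0.15 (1.70-fold, adjusted P = 0.00705, limma). Lgals3 was 9.58, 9.63, 9.64 and 9.73 in control cTregs and 10.69, 10.34, 10.02 and 9.92 in control eTregs. The Lgals3 groups did not overlap, yet the eTreg arrays ran from 9.92 to 10.69 while the cTreg arrays kept between 9.58 and 9.73. Its difference of 0.59 ± 0.18 had an unadjusted P of 0.00398 and did not pass after adjustment (adjusted P = 0.0877, limma). With KO eTreg 1 left out of the fit, which narrows the shared estimate of the spread, the same difference had an adjusted P of 0.0192. The monocyte and macrophage list was also higher in control eTregs than in control cTregs, with 15 of 16 markers higher and a median difference of 0.56, and its part in these differences was not tested.

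**Figure D1:**
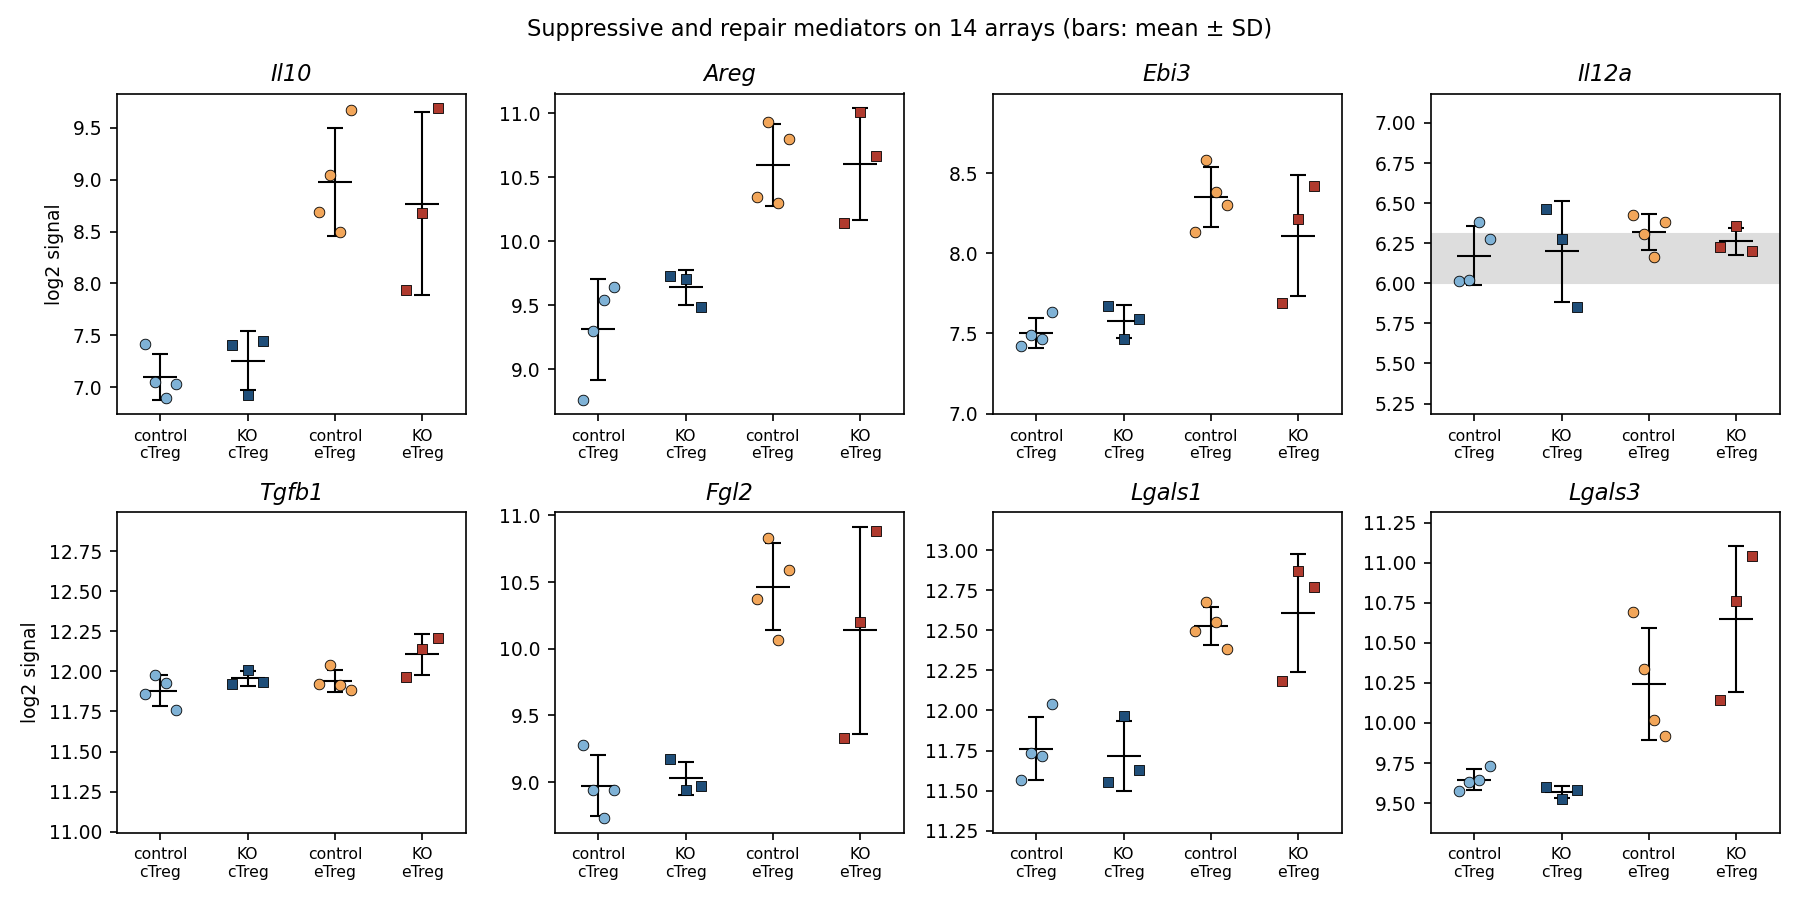
Log2 signal (vertical axis, a separate range for each gene, spanning at least 2 units) of the 8 genes on each of the 14 arrays, by group; KO means labelled KO, and bars give mean ± SD (n = 4, 3, 4 and 3). Il10, Areg, Ebi3, Fgl2 and Lgals1 sat higher in control eTregs than in control cTregs with no overlap, Il12a lay in the grey band of the array medians of background probes (6.00 to 6.30) or close to it, and Tgfb1 stayed near 12 in all groups.

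The same question was asked of the Tregs labelled KO. Here Il10, Areg, Lgals1 and Lgals3 rose in eTregs, which is 4 of the 8 genes against 2.35% of all transcript clusters in either direction and 2.02% higher. The eTreg arrays all lay above the cTreg arrays for 6 of the 8 genes, against 6.46% of all transcript clusters. The median difference over the 8 genes was 0.93, beside -0.044 over all transcript clusters. With 3 arrays a group, an exact two-sided permutation test of 1 gene cannot go below 0.1.

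Il10 was 7.40, 6.93 and 7.44 in KO cTregs and 7.93, 8.68 and 9.69 in KO eTregs. The groups were apart, although KO eTreg 1 lay closer to the cTregs than to KO eTreg 3. The rise was 1.51 ± 0.35 (2.84-fold, adjusted P = 0.0293, limma). Areg was 9.73, 9.71 and 9.48 in KO cTregs and 10.14, 11.01 and 10.67 in KO eTregs. It rose by 0.97 ± 0.24 (1.95-fold, adjusted P = 0.0464), close to the threshold.

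Lgals1 was 11.56, 11.97 and 11.63 in KO cTregs and 12.18, 12.87 and 12.77 in KO eTregs, a rise of 0.89 ± 0.17 (1.85-fold, adjusted P = 0.0108, limma). Lgals3 was 9.60, 9.53 and 9.58 in KO cTregs and 10.15, 10.76 and 11.04 in KO eTregs. The cTreg arrays were nearly level, and all 3 eTreg arrays stood above them. Lgals3 rose by 1.08 ± 0.20 (2.11-fold, adjusted P = 0.00871, limma), the smallest adjusted P of the 8 genes here. KO eTreg 2 and 3, where the macrophage list averaged 10.4, held the highest and second highest Lgals3 signal of all 14 arrays.

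Ebi3 and Fgl2 were higher in KO eTregs without passing. Ebi3 was 7.67, 7.47 and 7.59 in KO cTregs and 7.69, 8.21 and 8.42 in KO eTregs, a difference of 0.53 (adjusted P = 0.109, limma). Fgl2 was 9.17, 8.94 and 8.97 in KO cTregs and 9.33, 10.20 and 10.88 in KO eTregs, a difference of 1.11 (adjusted P = 0.0511). In both genes KO eTreg 1 was close to the highest KO cTreg array, and KO eTreg 3 was near the top of the control eTreg range or above it.

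Il12a was 6.46, 6.28 and 5.85 in KO cTregs and 6.23, 6.36 and 6.20 in KO eTregs, within or near the background range (difference 0.062, adjusted P = 0.910, limma). Tgfb1 was 11.92, 12.01 and 11.93 in KO cTregs and 11.97, 12.14 and 12.21 in KO eTregs. The Tgfb1 groups overlapped and differed by 0.15 (interval -0.071 to 0.37, adjusted P = 0.577).

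These calls depended on which arrays were fitted. Without KO eTreg 1, 6 of the 8 genes passed, with Ebi3 at 0.74 (adjusted P = 0.00299) and Fgl2 at 1.51 (adjusted P = 0.000341). Without KO eTreg 3 none of the 8 passed (0), with Il10 at 1.05 (adjusted P = 0.137), Areg at 0.94 (0.160), Lgals1 at 0.81 (0.0697) and Lgals3 at 0.89 (0.0569). Without KO eTreg 2, KO cTreg 1 or KO cTreg 3, only Lgals3 passed, and without KO cTreg 2 only Lgals1 and Lgals3 did. Where a call was lost without a KO cTreg array, the difference stayed at 1.34 to 1.60 for Il10, 0.89 to 1.01 for Areg and 0.81 to 0.84 for Lgals1. Areg alone also missed the threshold without control cTreg 2 or 3 or control eTreg 3 or 4, with adjusted P of 0.0527 to 0.0663. With KO eTreg 2 and 3 both left out, a choice made after seeing the data that leaves 1 KO eTreg array, none of the 8 passed. The differences were then 0.68 for Il10, 0.50 for Areg, 0.30 for Fgl2, 0.47 for Lgals1 and 0.58 for Lgals3, with the lone array taken to vary like the other groups.

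**Figure D2:**
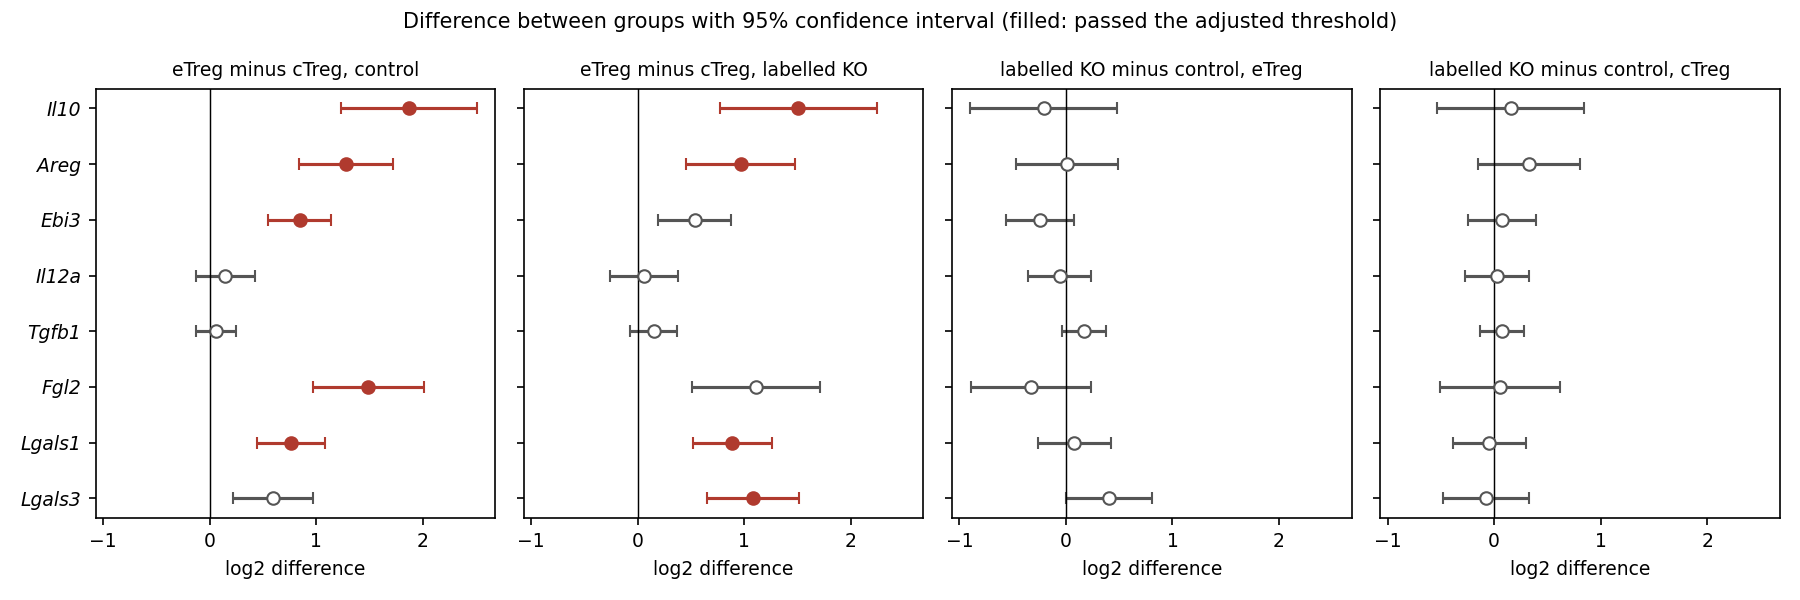
Difference in log2 signal between groups (horizontal axis) for each of the 8 genes in 4 comparisons, with 95% confidence intervals from the fit to all 14 arrays; filled red points passed the adjusted threshold. In control Tregs 5 genes passed and in Tregs labelled KO 4 did, whereas none passed between labelled KO and control in either subset.

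The next question was whether the mediators differ with the Atg14 label within a subset. In eTregs none of the 8 genes passed (0), against 0.117% of all transcript clusters, and 1 gene, Lgals3, had an unadjusted P below 0.05 (limma). For no member were the arrays labelled KO and control apart (0 of 8), against 6.85% of all transcript clusters. The median difference was -0.024 over the 8 genes and -0.022 over all transcript clusters.

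Lgals3 was 0.41 higher in eTregs labelled KO (interval 0.0029 to 0.81, unadjusted P = 0.0486, adjusted P = 0.618). KO eTreg 2 and 3 were above all control eTreg arrays, and KO eTreg 1 lay inside the control range of 9.92 to 10.69. The 2 arrays that stood above were those with the high monocyte and macrophage markers, of which 16 of 16 were higher in eTregs labelled KO, by a median of 0.91. Without KO eTreg 2 and 3, the Lgals3 difference was -0.095. Without KO eTreg 1 it was 0.66 (adjusted P = 0.0649), and with arrays weighted by their fit it was 0.73 and passed (adjusted P = 0.0254).

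Of the other 7 differences in eTregs, only that of Tgfb1 exceeded the SD of the KO arrays (0.17 against 0.13). Il10 stood at -0.21 (interval -0.90 to 0.48), Fgl2 at -0.33 (-0.89 to 0.24) and Ebi3 at -0.24 (-0.56 to 0.079). Areg stood at 0.012 (-0.47 to 0.49), Lgals1 at 0.079 (-0.26 to 0.42) and Il12a at -0.059 (-0.36 to 0.24). The narrowest interval was that of Tgfb1, at 0.17 (-0.041 to 0.37), where KO eTreg 2 and 3 (12.14 and 12.21) were the 2 highest of all 14 arrays. All 8 intervals lay within 1 log2 unit of 0, which is a 2-fold change, and those of Il10 and Fgl2 reached furthest down. Without KO eTreg 2 and 3, which leaves 1 KO array, the differences themselves were larger, at -1.04 for Il10 (adjusted P = 0.305), -1.14 for Fgl2 (adjusted P = 0.0833) and -0.66 for Ebi3 (adjusted P = 0.174), and none of these passed.

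One array held most of the low values. Of the 7 eTreg arrays, KO eTreg 1 was the lowest for 5 members (Il10, Areg, Ebi3, Fgl2 and Lgals1). KO eTreg 3 was the highest for 4 and KO eTreg 2 for 2. KO eTreg 1 was also the array with the lowest mean of the 5 eTreg markers, 9.71, and its part in the result was not tested.

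**Figure D3:**
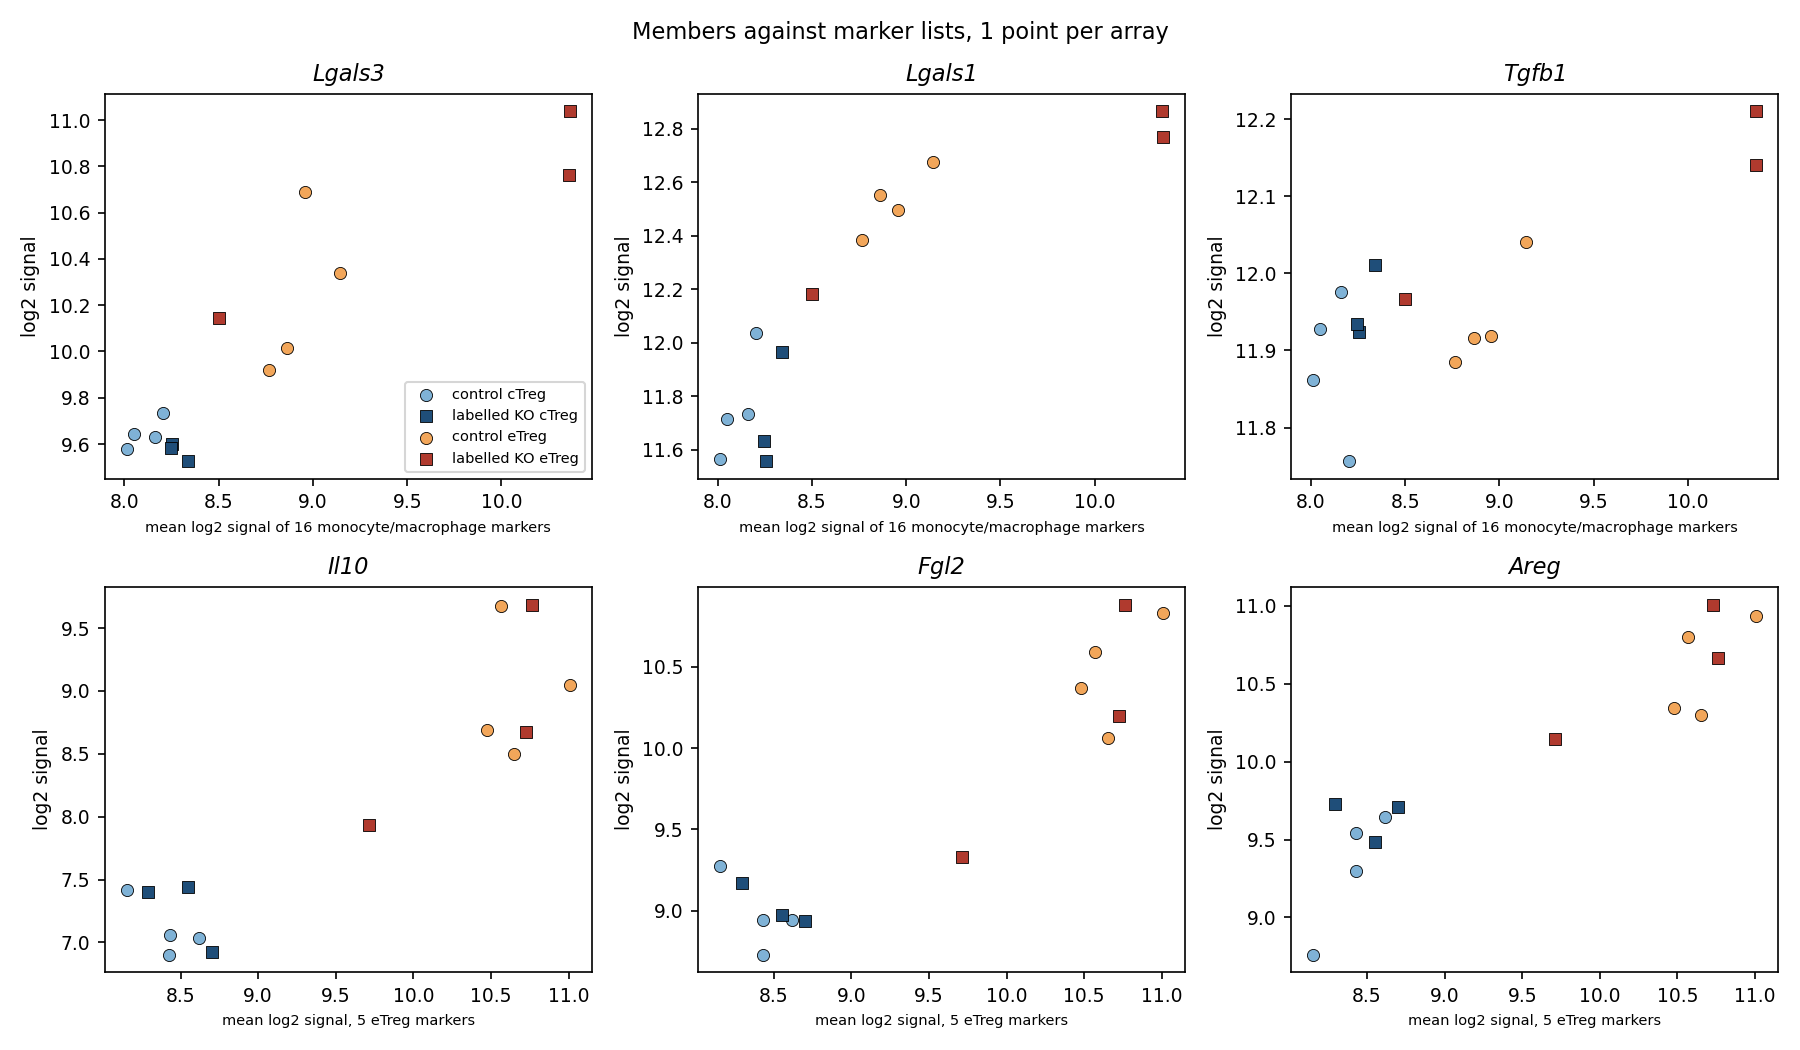
Log2 signal of 6 genes (vertical axes) on each array against the mean log2 signal of 16 monocyte and macrophage markers (upper row, Lgals3, Lgals1 and Tgfb1) or of 5 eTreg markers (lower row, Il10, Fgl2 and Areg), coloured by group. KO eTreg 2 and 3 stand at 10.4 on the macrophage axis with the highest Lgals3, Lgals1 and Tgfb1, and KO eTreg 1 lies at 9.71 on the eTreg axis, between the cTregs and the other eTregs.

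In cTregs none of the 8 genes passed (0), against 0.0450% of all transcript clusters, and none had an unadjusted P below 0.05 (0 of 8, limma). For none were the groups apart (0 of 8), against 5.05% of all transcript clusters. The differences of KO from control were 0.15 for Il10, 0.072 for Ebi3, 0.028 for Il12a, 0.076 for Tgfb1, 0.33 for Areg, 0.054 for Fgl2, -0.044 for Lgals1 and -0.078 for Lgals3. The largest, that of Areg, had an interval of -0.15 to 0.81 and control cTreg 1, at 8.76, was the lowest of the control arrays there. Without that array the Areg difference was 0.15, and without control cTreg 4 it was 0.44, the ends of its range with 1 array left out.

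Whether the KO label shifted eTregs otherwise than cTregs was tested as an interaction. None of the 8 genes passed (0), as was so for all transcript clusters (0%), and none had an unadjusted P below 0.05. The largest was Lgals3, at 0.49 (interval -0.087 to 1.06, unadjusted P = 0.0908, adjusted P = 0.846, limma). Ebi3 and Fgl2, which passed between subsets in control but not in KO Tregs, had interactions of -0.31 (adjusted P = 0.863) and -0.38 (adjusted P = 0.907), so a difference between the genotypes was not shown. Averaged over both subsets, the label moved none of the 8 past the threshold (0, against 0.0856%; 0 with an unadjusted P below 0.05).

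For each of the 8 genes except Tgfb1, both eTreg means stood above both cTreg means, though only narrowly for Il12a. For Il10, Ebi3 and Fgl2 the order was control eTreg, KO eTreg, KO cTreg and control cTreg. For Il10 these means were 8.98 ± 0.52 (SD, n = 4), 8.77 ± 0.88 (n = 3), 7.26 ± 0.29 (n = 3) and 7.10 ± 0.22 (n = 4). Areg ran from KO eTreg (10.60 ± 0.44) and control eTreg (10.59 ± 0.32) to KO cTreg (9.64 ± 0.14) and control cTreg (9.31 ± 0.39). Lgals1 and Lgals3 ran from KO eTreg and control eTreg to control cTreg and KO cTreg, with Lgals3 at 10.65 ± 0.46, 10.24 ± 0.35, 9.65 ± 0.064 and 9.57 ± 0.038. Neighbours in these orders that share a subset did not pass the threshold. Nor did the neighbouring KO groups of Ebi3 and Fgl2 or the neighbouring control groups of Lgals3, and control eTregs were not tested against KO cTregs for Areg. Tgfb1 ran from KO eTreg (12.11 ± 0.13) and KO cTreg (11.96 ± 0.047) to control eTreg (11.94 ± 0.069) and control cTreg (11.88 ± 0.095), with a cTreg group above an eTreg group. For Il12a the means ran from 6.32 in control eTregs, 6.26 in KO eTregs and 6.20 in KO cTregs to 6.17 in control cTregs. Those neighbours of Il12a and Tgfb1 that were tested did not pass, and for Tgfb1 KO cTregs were not tested against control eTregs.

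The genes around the mediators were described from 7 lists, 89 genes in all, each measured by the array. In control Tregs 22 of the 89 were higher in eTregs and 3 lower, and in Tregs labelled KO 19 were higher and none lower (0), to be read against the shares of all transcript clusters given above.

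Among 9 genes of the IL-10 axis, 3 rose in control eTregs and 3 in KO eTregs, and they were the same genes. They were Prdm1, a repressor that marks effector differentiation (2.55 and 2.13), Nfil3, a basic leucine zipper factor (1.70 and 1.31), and Maf, a factor that drives Il10 in T cells (1.36 and 1.15). The receptor chains Il10ra and Il10rb, the kinases Jak1 and Tyk2, Stat3 and its feedback inhibitor Socs3 did not pass in either genotype.

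Of 10 IL-12 family genes and receptors, Il12rb1, a receptor chain for IL-12 and IL-23, rose (0.63) and the cytokine Clcf1 fell by 0.67 in control eTregs. None passed in KO Tregs (0), where the largest differences were those of Il12rb1 (0.50, adjusted P = 0.103) and Il12rb2 (0.44, adjusted P = 0.327).

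For Tgfb1, whose product must be released from its latent form, 18 genes of the axis were listed. Itgb8, a subunit of the integrin that activates latent TGF-beta, was 9.50, 9.67, 10.06 and 9.45 in control cTregs and 11.02, 11.15, 11.24 and 10.93 in control eTregs. It was 9.73, 9.36 and 9.76 in KO cTregs and 10.19, 10.39 and 11.10 in KO eTregs. The subsets were apart in both genotypes, with rises of 1.42 and 0.94 (adjusted P = 0.000221 and 0.0236, limma). In control eTregs the receptor Tgfbr1 rose by 0.70 and the co-receptor Tgfbr3 fell by 0.62, and in KO eTregs the ligand Tgfb3 rose by 0.53. Thus 2 of 18 rose and 1 fell in control Tregs, and 2 rose in KO Tregs.

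Of 13 EGF family genes and receptors, to which Areg belongs by function, none passed in either genotype (0). The largest differences were those of the receptor Erbb3 (0.43, adjusted P = 0.121) and the sheddase Adam10 (0.26, adjusted P = 0.375) in control Tregs and those of the ligands Epgn (-0.41, adjusted P = 0.305) and Egf (-0.24, adjusted P = 0.609) in KO Tregs.

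Of 15 other galectins, Fgl2 receptors and counter-receptors, 1 rose in control eTregs and 3 in KO eTregs. Lag3, an inhibitory receptor that binds MHC class II, rose in both (1.29 and 1.05). Fcgr3, an Fc receptor of myeloid and NK cells, rose by 1.84 and Havcr2, which encodes the galectin-9 receptor Tim-3, by 1.37 in KO eTregs, the group that holds the 2 arrays with high macrophage markers.

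Other suppressive molecules moved more widely. Of 12, 7 rose and 1 fell in control eTregs, and 5 rose in KO eTregs. The largest rises were those of Tigit (3.85 and 3.18), an inhibitory receptor, Gzmb (2.24 and 2.48), a cytotoxic protease, Pdcd1 (1.93 and 1.72), which encodes PD-1, and Icos (1.69 and 1.27), a costimulatory receptor. Nt5e, the ectoenzyme CD73 that makes adenosine, rose by 0.89 and 0.86. Prf1, the pore-forming perforin, fell by 1.30 in control eTregs. Tigit and Icos also belong to the list of eTreg markers given above.

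Of 12 genes linked to tissue and repair Tregs, 8 rose in control eTregs and 6 in KO eTregs. Il1rl1, the receptor for IL-33, which can induce Areg in Tregs, rose by 2.51 and 2.94. The chemokine receptor Ccr8 (1.98 and 1.93), the enkephalin precursor Penk (1.89 and 2.02) and the nuclear receptor Rora (1.69 and 1.77) also rose in both. Klrg1, a surface marker of terminally differentiated cells, rose in control eTregs (1.65), and the growth factor Igf1 rose in KO eTregs (1.47). Igf1 ran from 9.80 to 11.47 in KO eTregs, with a median of 11.21, and from 9.46 to 9.96 in control eTregs. The KO eTreg group holds the arrays with high macrophage markers, and their part in the Igf1 rise was not tested.

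**Figure D4:**
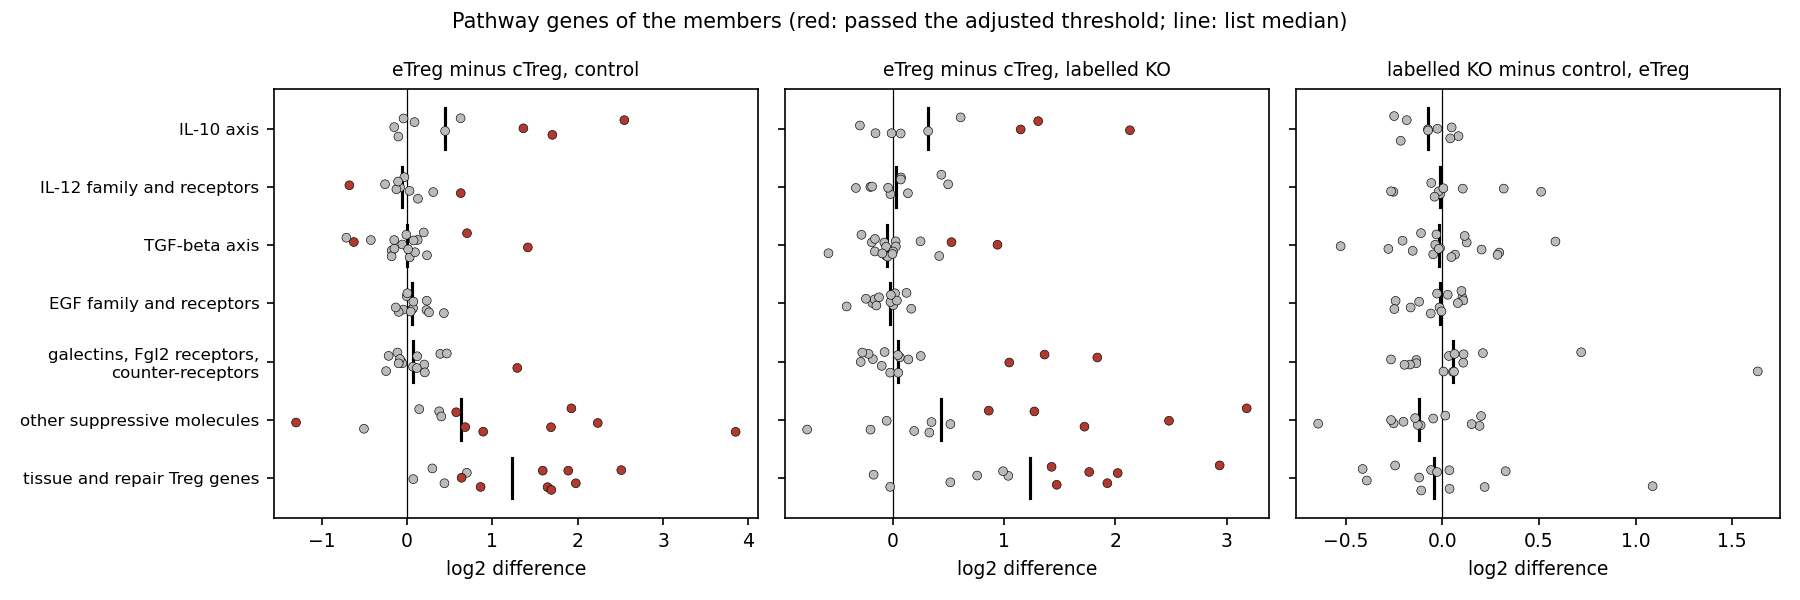
Difference in log2 signal (horizontal axis, a separate range in each panel) of each gene in the 7 lists, 1 point a gene, for eTreg minus cTreg in control and labelled KO Tregs and for labelled KO minus control in eTregs; red points passed the adjusted threshold and the black line is the list's median. In the suppressive and the tissue and repair lists most red points lie to the right in both subset comparisons, and the third panel has no red point.

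Between labelled KO and control, 0 of the 89 genes passed in eTregs and 0 in cTregs (limma). At the looser threshold of the study's methods, an unadjusted P below 0.05 with the same minimum difference, 5 were higher and 2 lower in eTregs, against 2.72% of all transcript clusters, and 0 were higher and 1 lower in cTregs, against 0.576%. The eTreg values were 1.63 for Fcgr3, 0.72 for Havcr2, 1.09 for Igf1, 0.51 for Il12rb2, 0.59 for Tgfbr3, -0.53 for Itgb8 and -0.64 for Tigit, and the cTreg value was -0.52 for Penk. At that threshold 0 of the 8 mediators were counted in either subset, whereas 6 were in control Tregs and 6 in KO Tregs between subsets, against 4.72% and 5.81% of all transcript clusters.

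The patterns most like each mediator were described by Pearson's r over the 14 arrays, among transcript clusters of above-median signal. These arrays fall into cTregs and eTregs, so r includes the step between subsets and is given without a test. Il10 was most like Fgl2 (r = 0.971, and 0.883 within the 7 eTreg arrays), and Ebi3 and Fgl2 were both most like Arnt2 (0.973 and 0.968). Areg was most like Ccr6 (0.962) and Lgals1 like S100a6 (0.979). Ly86 (0.942) and Slc40a1 (0.935) were among the 3 most like Lgals3. Tgfb1 was most like Pla2g2d (0.910, and 0.977 within the eTregs), and for Il12a, near background, the closest was Abhd13 (0.825). The next in order were Arnt2 for Il10, Smco4 and Fcrl1 for Areg, Nfil3 and Twsg1 for Ebi3, and Vsig10l and Twsg1 for Fgl2. For Lgals1 they were S100a10 and Cd38, for Tgfb1 Kctd12 and Bad, and for Il12a Bex2 and Glis2.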

How the data were processed

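Clariom S arrays were hybridised with RNA of 14 sorted mouse Treg samples. The authors summarised probes by robust multi-array average (RMA, background correction, quantile normalisation and median polish) with Affymetrix Expression Console 1.1, which gave the log2 signals they deposited. Quantile normalisation puts all arrays on 1 distribution, so a shift of most genes would not be seen. Of 28846 entries, 6643 control or blank ones were left out, which left 22203 transcript clusters (21902 symbols) with no filter on signal. Groups came from the sample titles. Linear models with 4 group means were fitted to all 14 arrays with limma 3.58.1 (lmFit, eBayes) in R 4.3.3, with 10 residual and 5.65 prior degrees of freedom, and p-values, two-sided, were adjusted by the Benjamini-Hochberg method. Scan or slide batches are not given in the sources used here. The number of arrays limits the precision. The fit was tested on simulated data with independent noise of the same spread on every array. That test does not cover arrays as unlike each other as the KO eTregs, or arrays that share mice. The mediators, the pathway and marker lists and the tests were chosen with earlier results of these data known. All 8 mediators are named, and of the pathway genes at most 5 of largest change that passed per list and comparison, or the 2 largest where none passed. The 2 markers of highest mean stand for a marker list, and up to 3 transcript clusters for likeness. Some values that these rules name are not reported here. Alternatives were fits of only the groups compared, other scalings, array weights, a trended robust prior, removal of the lowest 40% by signal, averaging of repeated symbols, the replicate number as a block and leaving out each array.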

Additional observations from a re-analysis of the deposited data

How the results depend on the processing

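The count of mediators that passed was 5 to 6 in control Tregs and 0 to 6 in Tregs labelled KO when 1 array was left out, and 0 in every other comparison. A fit of only the groups compared gave 0 in KO Tregs, as did leaving out KO eTreg 2 and 3 together. Array weights gave 1 between KO and control in eTregs (Lgals3). Removal of low signals gave 3 in control Tregs (Areg, Fgl2 and Lgals1), since Il10, Ebi3 and Il12a were then removed. Other settings left each count within 1.5 times, but between KO subsets Il10 was lost with the trended robust prior (adjusted P = 0.0542), Areg with array medians subtracted (0.0618), Ebi3 and Fgl2 passed with array weights (0.00987 and 0.00458), and Fgl2 with low signals removed (0.0427). Lgals3 passed in control Tregs in the fit of only the groups compared (0.0355). Causes were not tested unless stated.

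The replicate numbers are shared between groups. Deviations of same-numbered arrays correlated at 0.0443 to 0.303 across subsets (6 of 7 best with their own number) and at 0.0101 to 0.291 across genotypes (4 of 6), with a consensus correlation of 0.238 within genotype and number. Not every pair was above 0.1 and the labels give no shared source, so the block was kept as an alternative. With the replicate number as a block the counts stayed at 5 and 4 between subsets and 0 elsewhere. Under this block Il10 became 0.023 in eTregs and Lgals1 0.047 in cTregs, with the sign of the KO difference turned.

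The other sign changes were all in differences that had not passed. For KO minus control in eTregs, Areg was -0.0074 after subtraction of 75th percentiles, and Il10 was 0.050 and Fgl2 0.011 with array weights. Without KO eTreg 2 and 3 Areg was -0.45, Lgals1 -0.34 and Lgals3 -0.095. In cTregs Il12a was -0.11 with array weights. For the interaction Il12a was 0.055 with array weights, and without KO eTreg 2 and 3 Tgfb1 was -0.050, Lgals1 -0.30 and Lgals3 -0.017. For the average over subsets Il10 was 0.13 and Fgl2 0.043 with array weights, and without those arrays Areg was -0.061, Lgals1 -0.19 and Lgals3 -0.087.

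With 1 array left out, the range crossed 0 for Il12a between KO subsets (-0.11 to 0.19). For KO minus control in eTregs it did so for Il10 (-0.67 to 0.21), Areg (-0.19 to 0.24), Fgl2 (-0.70 to 0.078) and Lgals1 (-0.051 to 0.29), and in cTregs for Il12a (-0.10 to 0.20), Fgl2 (-0.028 to 0.16) and Lgals1 (-0.17 to 0.047). For the interaction it did so for Il10 (-0.83 to 0.051), Il12a (-0.26 to 0.046), Fgl2 (-0.75 to 0.024) and Lgals1 (-0.0066 to 0.33). For the average it did so for Il10 (-0.26 to 0.18), Ebi3 (-0.16 to 0.020), Il12a (-0.082 to 0.071), Fgl2 (-0.32 to 0.066) and Lgals1 (-0.048 to 0.12). Signal over background limits Il12a, which lay near the background probes on all 14 arrays.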
